A study of Mus musculus with 2 samples.

Results

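The spots of 2 spatial libraries from orthotopic pancreatic tumors were read for the 8 genes of the T cell receptor complex and its coreceptors. These are Cd3d, Cd3e, Cd3g and Cd247, which encode CD3 chains, Cd4, Cd8a and Cd8b1, which encode the coreceptors, and Foxp3, the master transcription factor of regulatory T cells. The members were taken by symbol from the 19465 features that both count matrices hold, and all 8 were found. One library was labelled KPC-shZEB1 and came from tumors of KPC cells with a short hairpin RNA against ZEB1. The other was labelled KPC-shV and came from tumors of KPC cells with the control vector. KPC is a mouse pancreatic cancer line, and the stable lentiviral lines were injected into the pancreas of mice of an allograft model, so tumor, stroma and immune cells are all of mouse origin. There were 2 tumors per group by the labels, which do not name the tumor behind each library. By the study's text the tissues were those of its single-cell experiment, from mice given gemcitabine, while the labels of these samples name neither the drug nor the strain or age of the mice. Visium CytAssist captures probes hybridized to the RNA of a section, and each spot covers a patch of tissue in which different cell types can lie together.

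A T cell recognizes a peptide on a major histocompatibility complex (MHC) molecule through its receptor chains, which have almost no cytoplasmic part of their own. The kinase Lck, which the coreceptors hold, phosphorylates the CD3 gamma, delta and epsilon chains and the zeta chain encoded by Cd247, and these then recruit the kinase Zap70. CD4 binds MHC class II and marks helper and regulatory T cells, whereas CD8 binds MHC class I and marks cytotoxic T cells, which can kill tumor cells that present antigen. In the mouse, CD4 is also found on some macrophages and plasmacytoid dendritic cells, and the zeta chain also serves receptors of natural killer cells.

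There were 140493626 UMIs over 2220 spots in the KPC-shZEB1-labelled library and 172059528 over 3552 in the KPC-shV-labelled library. A level is given as UMIs of the gene per 1000000 UMIs of the same spots (CPM), and a difference between libraries as a log2 ratio, with the KPC-shZEB1 level divided by that of KPC-shV. There was 1 library per group and so no replicate, no test is given, and every interval is at the 95% level and covers counting error only. Zeb1, the targeted gene, was read at 10.8 CPM (10.3 to 11.3) in the KPC-shZEB1-labelled library and 12.4 CPM (11.9 to 12.96) in the KPC-shV-labelled library. Its log2 ratio was -0.20 (-0.30 to -0.11) over all spots and 0.30 (0.20 to 0.40) outside acinar-rich spots, where it went against the label, so directions below are those of the labels only. A spot holds tumor and host cells together, while the hairpin was in the injected KPC cells only, so the Zeb1 level of tumor cells alone could not be read. Acinar-rich spots, with over 20% of UMIs from digestive enzyme genes, made up 34.2% and 7.07% of the spots. These UMIs enter the total, and the median log2 ratio of all genes tested was -0.48 over all spots and -0.01 outside acinar-rich spots. In total 1718 spot barcodes occurred in both libraries.

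Cd3g, Cd3d and Cd3e lie side by side on chromosome 9 (GRCm38). Cd3g (ENSMUSG00000002033) lies at 44969572 to 44980431 on the minus strand, Cd3d (ENSMUSG00000032094) at 44981786 to 44987339 on the plus strand, and Cd3e (ENSMUSG00000032093) at 44998740 to 45009627 on the minus strand. The start of Cd3d is 1355 bases from that of Cd3g, which is read the other way, and 27841 bases from that of Cd3e. Cd8b1 (ENSMUSG00000053044, chromosome 6, 71322788 to 71337494) and Cd8a (ENSMUSG00000053977, chromosome 6, 71373427 to 71379173) are neighbors as well, with starts 50639 bases apart. Cd4 (ENSMUSG00000023274) lies on chromosome 6 at 124864692 to 124888221, Cd247 (ENSMUSG00000005763) on chromosome 1 at 165788681 to 165877277, and Foxp3 (ENSMUSG00000039521) on chromosome X at 7573644 to 7595245. RefSeq promoters (GRCm38.p6, from 250 bases before to 50 after the start) were matched for 6 of the 8 members. Those of the CD3 cluster are shown because its 3 genes are neighbors and were all higher in the same library. Cd247, Cd8a and Foxp3, the other members matched, were higher in that library as well. They lie at chr9:44980382-44980681 on the minus strand (Cd3g), chr9:44981536-44981835 on the plus strand (Cd3d) and chr9:45009562-45009861 on the minus strand (Cd3e), and are written from 5′ to 3′. Capitals mark CACCTG, an E box core that ZEB1 and other E box factors are known to bind, and CTTCCT, a core of ETS factor sites, on either strand.
Cd3g: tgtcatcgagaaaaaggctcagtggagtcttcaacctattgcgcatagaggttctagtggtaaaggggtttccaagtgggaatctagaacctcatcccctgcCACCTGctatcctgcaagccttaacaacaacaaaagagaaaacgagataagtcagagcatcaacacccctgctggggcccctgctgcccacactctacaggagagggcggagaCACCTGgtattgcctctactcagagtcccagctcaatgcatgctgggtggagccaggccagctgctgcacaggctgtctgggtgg
Cd3d: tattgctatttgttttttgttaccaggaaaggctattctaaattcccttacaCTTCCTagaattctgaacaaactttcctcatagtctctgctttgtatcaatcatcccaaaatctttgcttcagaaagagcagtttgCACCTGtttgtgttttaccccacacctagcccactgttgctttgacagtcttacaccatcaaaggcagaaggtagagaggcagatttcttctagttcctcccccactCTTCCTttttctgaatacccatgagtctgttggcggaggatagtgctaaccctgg
Cd3e: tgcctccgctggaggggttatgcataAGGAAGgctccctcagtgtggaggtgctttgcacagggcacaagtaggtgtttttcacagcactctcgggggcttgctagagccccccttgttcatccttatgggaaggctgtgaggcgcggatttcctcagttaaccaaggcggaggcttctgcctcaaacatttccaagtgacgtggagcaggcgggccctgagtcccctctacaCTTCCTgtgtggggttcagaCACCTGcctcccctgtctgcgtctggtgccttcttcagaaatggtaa
CACCTG was found 2 times in the window of Cd3g and 1 time each in those of Cd3d and Cd3e, and CTTCCT was found 0, 2 and 2 times. Among 32851 RefSeq promoters of this length, 20.2% hold CACCTG, 35.4% hold CTTCCT and 7.03% hold both. Of the windows not shown, that of Cd247 held CACCTG 1 time and CTTCCT 2 times, and that of Cd8a held neither. Those of Foxp3 held CACCTG 0 times and CTTCCT 0 and 1 times. A match describes the letters of the window and is no evidence of a bound site. The hairpin against ZEB1 was carried by the injected KPC cells and not by cells of the host.

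The 3 CD3 chain genes were each higher in the KPC-shZEB1-labelled library. Cd3e was read at 19.6 CPM (18.8 to 20.3) in the KPC-shZEB1-labelled library and 5.61 CPM (5.27 to 5.98) in the KPC-shV-labelled library, a log2 difference of 1.80 (1.69 to 1.91). Cd3d stood at 15.1 CPM (14.4 to 15.7) and 4.36 CPM (4.05 to 4.68), a log2 difference of 1.79 (1.67 to 1.91). Cd3g stood at 15.0 CPM (14.4 to 15.7) and 3.32 CPM (3.05 to 3.60), a log2 difference of 2.18 (2.05 to 2.32). These intervals cover counting error only and were not compared with those of all genes. Summed, the CD3 chains reached 49.7 CPM (48.5 to 50.8) from 6977 UMIs and 13.3 CPM (12.8 to 13.8) from 2287 UMIs, 3.74-fold higher in the KPC-shZEB1-labelled library. In a section, fewer T cells and less RNA per T cell cannot be told apart.

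Within the cluster, the proportion of Cd3g differed between the libraries. Cd3d UMIs per Cd3e UMI were 0.770 and 0.776, a log2 difference of -0.01 (-0.17 to 0.15), not detectable at this depth. Cd3g UMIs per Cd3e UMI were 0.769 (0.727 to 0.814) in the KPC-shZEB1-labelled library and 0.591 (0.532 to 0.656) in the KPC-shV-labelled library, a log2 difference of 0.38 (0.21 to 0.55). The same ratio stood at 0.810 in the remaining tumor tissue and 0.557 in the B cell rich spots of the KPC-shZEB1-labelled library, so it also varied within a section. Ratios of UMIs depend on the probes of each gene and are compared here only between libraries and classes of spots.

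Cd247, the zeta chain, followed the other chains. It was read at 2.69 CPM (2.43 to 2.98) in the KPC-shZEB1-labelled library and 0.703 CPM (0.584 to 0.840) in the KPC-shV-labelled library, a log2 difference of 1.94 (1.64 to 2.24). Per UMI of the CD3 chains there were 0.0542 and 0.0529 UMIs of Cd247, a log2 difference of 0.03 (-0.27 to 0.34).

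Both chains of the CD8 coreceptor were higher in the KPC-shZEB1-labelled library, and Cd4 was higher by less. Cd8a stood at 5.20 CPM (4.83 to 5.59) and 1.64 CPM (1.45 to 1.84), a log2 difference of 1.66 (1.46 to 1.87). Cd8b1, which encodes the beta chain of the CD8 heterodimer, stood at 3.24 CPM (2.95 to 3.55) and 0.924 CPM (0.786 to 1.08), a log2 difference of 1.81 (1.55 to 2.08). Cd4 stood at 6.96 CPM (6.53 to 7.41) and 4.63 CPM (4.31 to 4.96), a log2 difference of 0.59 (0.45 to 0.73). Foxp3 was close to the limit of detection, with 123 and 104 UMIs, at 0.875 CPM (0.728 to 1.04) and 0.604 CPM (0.494 to 0.732), a log2 difference of 0.53 (0.15 to 0.93). The Foxp3 difference was 0.39 (-0.03 to 0.82) without B cell rich spots and 0.10 as the mean CPM of spots, and that of Cd8a was 2.85 without the 5% of spots with the highest level, which held 41.2% and 73.4% of its UMIs. Over all spots, 6 of the 8 members had a log2 ratio of at least 1, as did 2.09% of the 19124 genes with at least 50 UMIs in the higher library. No member had a log2 ratio of -1 or less, as 8.23% of those genes did. Outside acinar-rich spots all 8 members had a log2 ratio of at least 1, beside 3.79% of the genes, and the median log2 ratio of the members was 2.42. In the remaining tumor tissue 6 of 8 had one of at least 1, beside 3.30%, and 0 had one of -1 or less, beside 1.61%, with Cd4 at 0.94 and Foxp3 at 0.99 just under that limit.

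**Figure D1:**
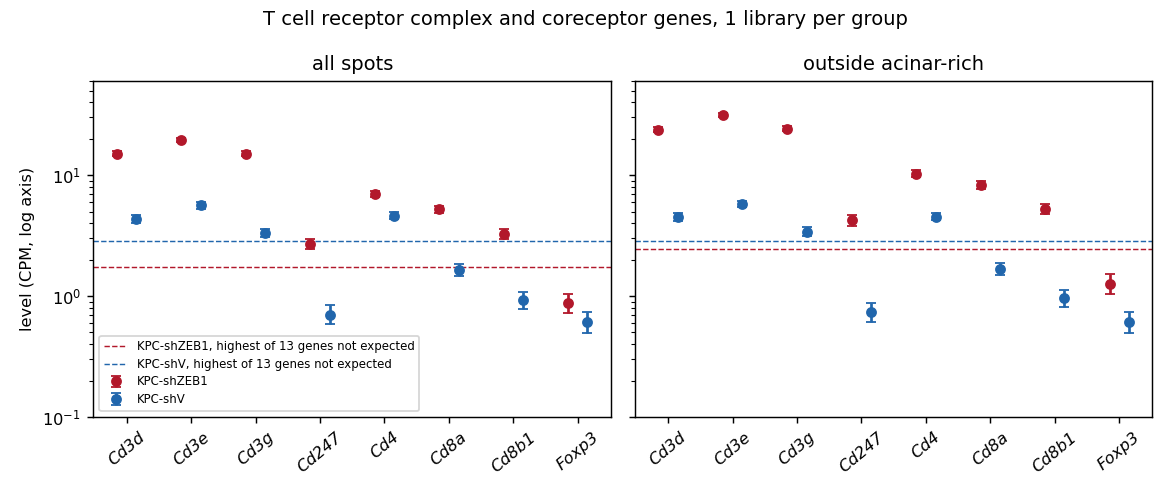
Level of each member (CPM, log axis) in both libraries, over all spots and outside acinar-rich spots. Points are libraries, bars are 95% exact Poisson intervals for counting error, and dashed lines are the highest level among 13 genes not expected in pancreas or tumor. Over all spots, 7 members lie above that level in the KPC-shZEB1-labelled library and 4 in the KPC-shV-labelled library.

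To judge how low a level can be read, 13 genes that neither pancreas nor tumor is expected to express (photoreceptor, sperm, lens, kidney and heart genes) were read in the same spots. They ranged from 0.427 to 1.72 CPM with a median of 0.840 in the KPC-shZEB1-labelled library, and from 0.628 to 2.84 CPM with a median of 1.10 in the KPC-shV-labelled library. Foxp3 lay under the highest of them in the KPC-shZEB1-labelled library, and Cd247, Cd8a, Cd8b1 and Foxp3 did in the KPC-shV-labelled library. The background of single genes differs, however. In spots of the KPC-shV-labelled library without any UMI of the CD3 chains, Cd8b1 was read at 0.340 CPM (0.239 to 0.468) and Foxp3 at 0.321 CPM (0.224 to 0.447), both under the median of 1.06 CPM of the unexpected genes there. In spots with 3 or more UMIs of the CD3 chains they were read at 4.15 CPM (3.18 to 5.33) and 1.63 CPM (1.05 to 2.43).

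**Figure D2:**
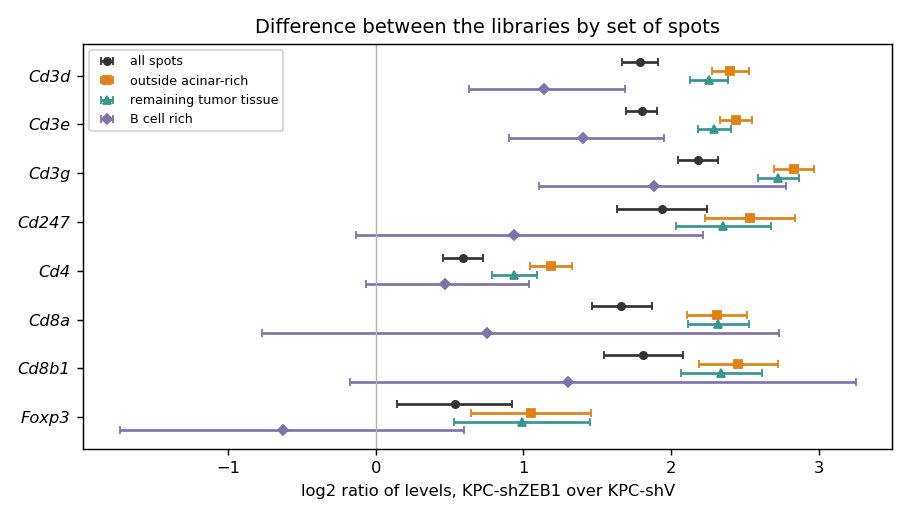
Log2 ratio of the level of each member, KPC-shZEB1 over KPC-shV, in 4 sets of spots. Points are ratios of 1 library over 1 library and bars are 95% exact conditional binomial intervals for counting error. Cd4 and Foxp3 lie to the left of the CD3 and CD8 chain genes in all spots, at 0.59 and 0.53, and outside acinar-rich spots, at 1.18 and 1.05.

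The balance of the coreceptors therefore differed between the libraries. There were 0.825 (0.758 to 0.899) Cd4 UMIs per UMI of the CD8 chains in the KPC-shZEB1-labelled library and 1.80 (1.60 to 2.03) in the KPC-shV-labelled library, a log2 difference of -1.13 (-1.34 to -0.92). The values in the remaining tumor tissue were 0.643 and 1.68, a log2 difference of -1.39 (-1.61 to -1.17). In spots with at least 1 UMI of the CD3 chains they were 0.773 (0.706 to 0.845) and 1.64 (1.41 to 1.91). The CD8 chains of the KPC-shV-labelled library were near the level of the unexpected genes, with Cd8a at 1.64 CPM above their median of 1.10 CPM and Cd8b1 at 0.924 CPM below it, so the size of this difference is uncertain.

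Set against the CD3 chains, Cd4 differed by more than the CD8 chains. Cd4 UMIs per CD3 chain UMI were 0.140 and 0.348, a log2 difference of -1.31 (-1.46 to -1.16), whereas UMIs of the CD8 chains were 0.170 and 0.193, a log2 difference of -0.18 (-0.35 to -0.01). In the remaining tumor tissue the latter was -0.08 (-0.25 to 0.10). Cd8b1 UMIs per Cd8a UMI were 0.623 and 0.564 over all spots, a log2 difference of 0.14 (-0.18 to 0.47). This pooled ratio mixes unlike spots. Spots with 3 or more UMIs of the CD3 chains had 365 Cd8b1 and 586 Cd8a UMIs in the KPC-shZEB1-labelled library. In the KPC-shV-labelled library such spots had 61 and 65, and spots with 0 UMIs of the CD3 chains had 37 and 122. The makeup of the CD8 coreceptor is therefore not read from the pooled ratio.

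Cd4 was also read where no CD3 chain UMI was. In spots with 0 UMIs of the CD3 chains outside acinar-rich tissue, Cd4 stood at 5.17 CPM (3.92 to 6.68) in 234 spots of the KPC-shZEB1-labelled library and 2.85 CPM (2.53 to 3.19) in 2175 spots of the KPC-shV-labelled library. Cd8a was read in these spots too, at 2.67 CPM (1.80 to 3.81) and 1.14 CPM (0.940 to 1.36). The median of the unexpected genes was 1.07 and 1.06 CPM there. Over all spots with 0 UMIs of the CD3 chains, the receptor chain gene Trac was still read at 3.12 CPM (2.69 to 3.61) and 4.66 CPM (4.26 to 5.08). Trbc2, another receptor chain gene, was read at 4.78 CPM (4.23 to 5.38) and 5.34 CPM (4.91 to 5.79). A count of 0 is therefore not read as absence of T cells. In spots with 3 or more UMIs of the CD3 chains Cd4 stood at 12.8 CPM (11.9 to 13.8) and 11.7 CPM (9.99 to 13.6), intervals that overlap. Cd8a stood at 10.8 CPM (9.95 to 11.7) and 4.44 CPM (3.42 to 5.66), which do not. A single spot held up to 43 and 15 UMIs of the CD3 chains, so the amount of CD3 in this group was not matched between the libraries. After thinning each spot to 20000 UMIs, 77.0% (71.6% to 81.7%) of the spots with a Cd4 UMI in the KPC-shZEB1-labelled library also had a CD3 chain UMI, compared with 40.5% (34.1% to 47.1%) in the KPC-shV-labelled library. For spots with a UMI of the CD8 chains the shares were 77.6% (72.6% to 82.1%) and 39.0% (31.1% to 47.5%). Without thinning the 4 shares were 85.7% and 54.0% for Cd4, and 92.2% and 58.8% for the CD8 chains. Among all spots, a CD3 chain UMI was found in 44.3% and 19.0% after thinning and in 60.7% and 32.3% without it. The overlap shares of the libraries thus start from unlike base shares, and the difference between them is not read as one in the source of Cd4.

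Markers of other cells that can carry CD4 were read as well. Outside acinar-rich spots, the macrophage list (6 of 6 genes read in both libraries) stood at 1559 CPM where the KPC-shZEB1-labelled library had 0 UMIs of the CD3 chains and 2767 CPM where it had 3 or more, and at 1134 and 3282 CPM in the KPC-shV-labelled library. Over all spots the list stood at 1614 and 1551 CPM, and in all spots outside acinar-rich tissue it reached 2417 CPM and 1558 CPM, respectively. Of its 6 genes, 0 had a log2 ratio of at least 1 and 0 had one of -1 or less outside acinar-rich spots. The plasmacytoid dendritic cell list (4 of 4 genes read, including Siglech) reached 12.9 CPM (12.1 to 13.6) and 4.66 CPM (4.34 to 5.004) in the same spots. The natural killer cell list (6 of 6 genes read) reached 17.7 CPM (16.8 to 18.6) and 6.80 CPM (6.40 to 7.20), beside the zeta chain. No gene of these 3 lists was at 0 in either library, and their part in the levels of Cd4 and Cd247 was not tested. For Cd8a, a type 1 dendritic cell list stood at 122 and 156 CPM outside acinar-rich spots. Where these spots had 0 UMIs of the CD3 chains it stood at 130 and 163 CPM, and where they had 3 or more at 118 and 132 CPM. Of its 5 genes, 2 had a log2 ratio of at least 1 outside acinar-rich spots, beside 3.79% of all genes. There, 0 had one of -1 or less, beside 1.73%. The median log2 ratio of the 5 genes was 0.60 and that of their summed level -0.36, so the sum does not stand for the single genes. The part of type 1 dendritic cells in the level of Cd8a was not tested.

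A difference in the regulatory T cell marker relative to Cd4 was not detectable at this depth. Foxp3 UMIs per Cd4 UMI were 0.126 and 0.131, a log2 difference of -0.05 (-0.46 to 0.35). Per UMI of the CD3 chains they were 0.0176 and 0.0455, a log2 difference of -1.37 (-1.75 to -0.98). Foxp3, at 0.875 and 0.604 CPM, lay near or under the median of the unexpected genes, 0.840 and 1.10 CPM, so background limits both ratios. The CD3 chains in the second ratio differed 3.74-fold between the libraries, and it is not read as a difference in the share of regulatory T cells. No spot had more than 2 UMIs of Foxp3 in either library. Of 9 further genes linked to regulatory T cells, 2 had a log2 ratio of at least 1 outside acinar-rich spots and 0 had one of -1 or less, beside 3.79% and 1.73% of all genes. These were Ctla4, a checkpoint receptor, at 1.68 (1.49 to 1.88), and Il2ra, a chain of the interleukin 2 receptor, at 1.50 (1.32 to 1.67). Ccr8, a chemokine receptor of tumor regulatory T cells, was at 0.91 (0.58 to 1.24), and Il10 at 0.50 (0.14 to 0.86).

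Across the sections, spots were put into 4 classes in order without use of any member. Acinar-rich spots came first (760 and 251 spots). B cell rich spots (142 and 96) were those with over 206.53 CPM of a B cell list, the 95th percentile of the spots of both libraries then left. Hypoxic spots (10 and 443) were those with over 4801.46 CPM of a hypoxia list, the 90th percentile of the spots then left. All others were remaining tumor tissue (1308 and 2762 spots). Depth differed between classes, with medians of 30175 and 11385.5 UMIs per B cell rich spot against 60161.5 and 60281.5 UMIs per spot of remaining tumor tissue. Of the B cell rich spots, 33 and 76 had under 20000 UMIs, and the class held 3128 and 570 UMIs of the B cell list. Few such UMIs bring a shallow spot over the limit. Whether the class holds like tissue in both libraries was not tested.

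The CD3 chains were highest in B cell rich spots, at 169 CPM (158 to 181) in the KPC-shZEB1-labelled library and 64.1 CPM (51.1 to 79.4) in the KPC-shV-labelled library. The remaining tumor tissue had 73.9 CPM (72.1 to 75.8) and 14.0 CPM (13.4 to 14.6). B cell rich spots thus exceeded it by a log2 ratio of 1.19 (1.09 to 1.30) and 2.20 (1.87 to 2.51). Their share of all CD3 chain UMIs was 12.2% and 3.67%, and 84.8% and 93.5% lay in remaining tumor tissue. In this comparison 5 and 7 of the 8 members had a log2 ratio of at least 1, beside 15.4% and 33.6% of all genes tested, and no member had one of -1 or less, beside 11.9% and 11.9%. Of the unexpected genes, 4 of 12 and 9 of 13 tested had a log2 ratio of at least 1 as well, and 1 and 3 had one of -1 or less.

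In the B cell rich spots of the KPC-shZEB1-labelled library, Cd4 was higher than in the remaining tumor tissue and Cd8a was lower. Cd4 stood at 35.9 CPM (30.8 to 41.5) against 8.75 CPM (8.11 to 9.42), a log2 difference of 2.04 (1.79 to 2.27). Cd8a stood at 5.15 CPM (3.37 to 7.55) against 8.51 CPM (7.88 to 9.18), a log2 difference of -0.72 (-1.35 to -0.16), and Cd8b1 at 7.53 CPM (5.33 to 10.3) against 5.10 CPM (4.62 to 5.62), a log2 difference of 0.56 (0.04 to 1.04). Summed, the CD8 chains differed by -0.10 (-0.49 to 0.26). In the KPC-shV-labelled library Cd4 was higher in B cell rich spots by 2.51 (1.97 to 3.01) on the log2 scale, and the CD8 chains, from 8 UMIs, differed by 1.17 (-0.05 to 2.16). Cd4 UMIs per CD8 chain UMI were 2.83 (2.12 to 3.82) in B cell rich spots, a log2 difference of 2.14 (1.70 to 2.57) over the remaining tumor tissue. The ratio was 4.25 (1.93 to 10.6) in the KPC-shV-labelled library, a log2 difference of 1.34 (0.21 to 2.46). Cd8b1 UMIs per Cd8a UMI were 1.46 (0.865 to 2.51) in B cell rich spots and 0.599 in the remaining tumor tissue of the KPC-shZEB1-labelled library, a log2 difference of 1.29 (0.55 to 2.03).

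Foxp3 was read at 4.95 CPM (3.21 to 7.31) from 25 UMIs and 7.63 CPM (3.66 to 14.0) from 10 UMIs in B cell rich spots, compared with 1.04 and 0.523 CPM in the remaining tumor tissue. Genes of lymph node stroma and venules were also higher in B cell rich spots, at 158 CPM (147 to 169) and 96.2 CPM (80.1 to 114). Of the 4 genes read, 3 had a log2 ratio of at least 1 over the remaining tumor tissue in each library, beside 15.4% and 33.6% of all genes tested. In the KPC-shV-labelled library 1 had a log2 ratio of -1 or less, beside 11.9%. Of the unexpected genes, 4 of 12 and 9 of 13 tested had a log2 ratio of at least 1 as well. The part of a lymph node or of lymphoid aggregates in these spots was not tested. Between the libraries, B cell rich spots differed in the CD3 chains by a log2 ratio of 1.40 (1.07 to 1.74), whereas Cd4 at 0.47 (-0.07 to 1.04) and Foxp3 at -0.62 (-1.73 to 0.60) did not differ detectably at this depth. In this comparison 3 of the 5 members tested had a log2 ratio of at least 1, beside 2.30% of all genes tested, and 0 had one of -1 or less, beside 3.90%. Cd8a, Cd8b1 and Foxp3 had too few UMIs there to be counted.

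**Figure D3:**
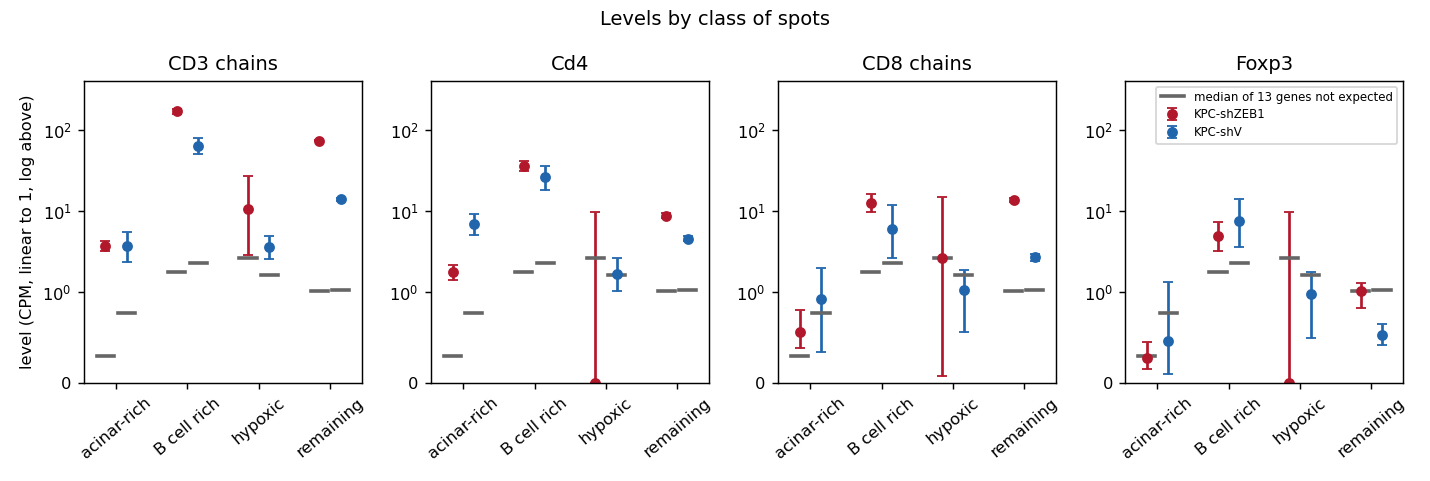
Level (CPM, linear up to 1 and logarithmic above) of the summed CD3 chains, Cd4, the summed CD8 chains and Foxp3 in 4 classes of spots of both libraries. Bars are 95% exact Poisson intervals for counting error, and grey marks are the median of 13 genes not expected in pancreas or tumor in the same spots. CD3 chains were highest in B cell rich spots, at 169 and 64.1 CPM. They were lowest in acinar-rich spots of the KPC-shZEB1-labelled library, at 3.72 CPM, and in hypoxic spots of the KPC-shV-labelled library, at 3.58 CPM.

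Acinar-rich spots had few T cell transcripts. The CD3 chains were read there at 3.72 CPM (3.23 to 4.27) and 3.69 CPM (2.36 to 5.49), a log2 difference of 0.01 (-0.60 to 0.69). This lay below the remaining tumor tissue by a log2 ratio of -4.31 (-4.52 to -4.11) and -1.92 (-2.57 to -1.34). The KPC-shV level rests on 24 UMIs. Cd3d, Cd3e and Cd3g stood at 1.08, 1.69 and 0.923 CPM in it, beside a median of 0.769 CPM of the unexpected genes there. In the KPC-shZEB1-labelled library they stood at 1.60, 1.40 and 0.727 CPM, beside a median of 0.291 CPM. In both libraries each chain lay under the highest unexpected gene. Background thus limits the size of the KPC-shV contrast and the comparison between libraries. All 8 members and 6 of 8 had a log2 ratio of -1 or less there, beside 89.4% and 47.1% of all genes tested, so that the first count is near the background. No member had a log2 ratio of at least 1 there, beside 1.70% and 6.16% of the genes. The median log2 ratio of all genes tested there was -2.12 and -0.90. Cd4 did not follow the CD3 chains in the KPC-shV-labelled library. It stood at 6.92 CPM (5.05 to 9.26) in acinar-rich spots and 4.56 CPM (4.23 to 4.91) in the remaining tumor tissue, compared with 1.76 CPM (1.43 to 2.15) and 8.75 CPM in the KPC-shZEB1-labelled library. The macrophage list stood at 1373 CPM and 367 CPM in these acinar-rich spots, in the same order, and its part in the Cd4 level was not tested.

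Hypoxic spots had lower levels of the CD3 chains than the remaining tumor tissue of the same library. The 443 hypoxic spots of the KPC-shV-labelled library gave 40 UMIs, 3.58 CPM (2.56 to 4.88), a log2 difference of -1.96 (-2.45 to -1.51) over the remaining tumor tissue. Cd3d, Cd3e and Cd3g, at 1.34, 1.43 and 0.806 CPM, all lay under the median of 1.61 CPM of the unexpected genes in these spots, so the size of this difference is limited by background. Cd247 and Cd8b1 had 0 UMIs there, which allows up to 0.331 CPM of each. Foxp3 did not follow, with 11 UMIs at 0.986 CPM against 0.523 CPM in the remaining tumor tissue, a log2 difference of 0.92 (-0.14 to 1.83), also under that median. Foxp3 UMIs per Cd4 UMI were higher in hypoxic spots of the KPC-shV-labelled library by 2.34 (1.21 to 3.46) on the log2 scale. That ratio rests on 11 Foxp3 and 19 Cd4 UMIs. Cd4, at 1.70 CPM (1.02 to 2.66), was close to the same median, so background limits both of its terms. The library labelled KPC-shZEB1 had only 10 hypoxic spots under the shared limit, with 4 CD3 chain UMIs at 10.6 CPM (2.88 to 27.1). With the limit set within each library, an alternative chosen after seeing the data, 132 spots were hypoxic in the KPC-shZEB1-labelled library and the CD3 chains stood at 18.9 CPM against 78.6 CPM in its remaining tumor tissue, a log2 difference of -2.06 (-2.32 to -1.80). By the shared limit 7 and 6 of the 8 members had a log2 ratio of -1 or less, beside 30.9% and 6.71% of all genes tested. No member had one of at least 1, beside 14.8% and 10.9%. The first count of lower members rests on 6 member UMIs in all.

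Spots outside the acinar-rich and B cell rich classes were next ordered by the level of the hypoxia list within each library and divided into 5 groups of equal size. From the lowest to the highest group the CD3 chains stood at 96.4, 88.4, 81.8, 66.8 and 30.4 CPM in the KPC-shZEB1-labelled library. In the KPC-shV-labelled library they stood at 18.8, 23.2, 11.8, 4.32 and 3.61 CPM. Intervals of the lowest and the highest group were apart in both, at 91.6 to 101.4 and 27.7 to 33.4 CPM, and at 17.4 to 20.2 and 2.81 to 4.57 CPM. The median of the unexpected genes in the highest group of the KPC-shV-labelled library was 1.36 CPM for a single gene. Median depth in the highest group was 51824 and 27865 UMIs per spot, lower than in the other groups, which had at least 58419.5 and 60135 UMIs.

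Ordered by a list of tumor epithelium genes (keratins, Epcam and other epithelial genes), the coreceptors behaved unlike one another. In the KPC-shZEB1-labelled library, Cd4 stood at 20.1, 9.87, 6.64, 5.27 and 3.998 CPM from the group with least to the group with most epithelium. The CD8 chains stood at 12.0, 14.8, 13.2, 13.1 and 14.3 CPM in the same groups, a narrow range. The number of Cd4 UMIs per CD8 chain UMI was thus 1.67 (1.37 to 2.03) in the group with least epithelium and 0.279 (0.213 to 0.361) in the group with most. Foxp3 had 40 UMIs in the first of these groups and 5 in the last, at 2.85 and 0.267 CPM, while the CD3 chains stood at 106.6 CPM (101.3 to 112.2) and 52.0 CPM (48.8 to 55.4).

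In the KPC-shV-labelled library, Cd4 stood at 12.3, 6.50, 2.73, 2.41 and 1.91 CPM over these groups and the CD8 chains at 4.14, 3.53, 2.26, 2.33 and 1.48 CPM. Here both were lower where epithelium was higher, and the balance went from 2.97 (2.29 to 3.90) to 1.29 (0.872 to 1.92). The CD3 chains went from 39.96 CPM (37.2 to 42.9) to 5.33 CPM (4.56 to 6.18). In the group with most epithelium, the median of the unexpected genes was 1.01 and 0.924 CPM, so that the coreceptors of the KPC-shV-labelled library were near background there. Median depth in the group with least epithelium was 52216.5 and 25944 UMIs per spot, against 68399 and 54591 UMIs in the group with most. The balance also moved with depth and with the macrophage list. In 5 groups by depth it went from 1.28 in the shallowest to 0.484 in the deepest spots of the KPC-shZEB1-labelled library, and from 4.07 to 1.40 in the KPC-shV-labelled library. In 5 groups by the macrophage list it went from 0.322 in the lowest to 1.30 in the highest and from 0.844 to 2.45, with Cd4 going from 2.58 to 21.8 CPM and from 0.908 to 13.9 CPM. By the acinar list the balance went from 0.343 in the lowest to 1.51 in the highest group of the KPC-shZEB1-labelled library. By the B cell list it went from 0.531 to 1.44 there. In the KPC-shV-labelled library it went from 1.79 to 2.39 and from 1.70 to 2.08, with intervals that overlap. The part of depth, macrophages, acinar tissue and B cells in the order by epithelium was not tested.

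**Figure D4:**
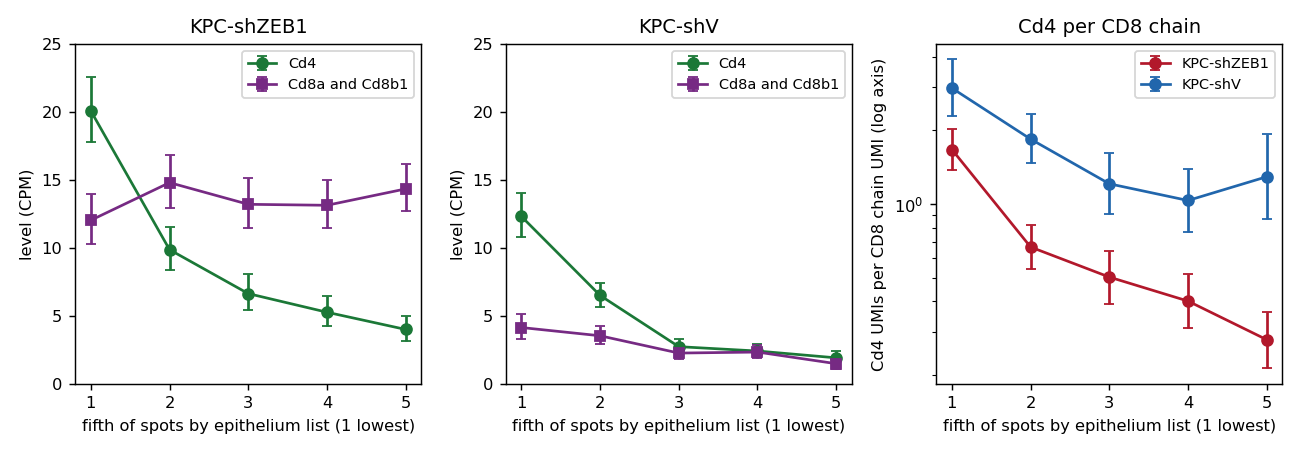
Levels (CPM) of Cd4 and of the summed CD8 chains in 5 equal groups of spots ordered by the tumor epithelium list, for each library, and Cd4 UMIs per CD8 chain UMI (log axis) in the same groups. Bars are 95% intervals for counting error, exact Poisson for levels and exact conditional binomial for the ratio. In the KPC-shZEB1-labelled library, Cd4 goes from 20.1 to 3.998 CPM while the CD8 chains lie between 12.0 and 14.8 CPM.

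The share of spots with a CD3 chain UMI gave the same order as the levels. After thinning to 20000 UMIs, without the 70 and 729 spots of lower depth, it was 44.3% (42.2% to 46.4%) of 2150 spots in the KPC-shZEB1-labelled library and 19.0% (17.6% to 20.5%) of 2823 spots in the KPC-shV-labelled library. Without thinning it was 60.7% and 32.3%. In acinar-rich spots it was 6.73% (5.04% to 8.78%) and 5.26% (2.30% to 10.1%) after thinning. Median depths before thinning were 67016 and 33334 UMIs there, against 60879 and 59932 UMIs over all spots kept. Digestive enzyme UMIs take up part of the thinned depth of acinar-rich spots. In the KPC-shZEB1-labelled library, Cd3d and Cd3e stood there at 1.60 and 1.40 CPM. The unexpected genes had a median of 0.291 and a highest of 1.80 CPM, so this share is not taken as a background. Cd4 without a CD8 chain was found in 9.77% and 7.55% of the thinned spots, CD8 chains without Cd4 in 11.4% and 4.50%, and both in 3.35% and 0.673%. A single spot held up to 43 UMIs of the CD3 chains in the KPC-shZEB1-labelled library and up to 15 in the KPC-shV-labelled library.

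The members were set beside 23 genes of the T cell receptor and its signalling. Outside acinar-rich spots, 17 of the 23 had a log2 ratio of at least 1 and 1 had a log2 ratio of -1 or less, beside 3.79% and 1.73% of all genes, and their median was 1.56. Trac, the constant part of the receptor alpha chain, had a log2 ratio of 2.13 (2.04 to 2.22) and Trbc2, that of a beta chain, one of 2.43 (2.36 to 2.51). The kinases Lck and Zap70 stood at 1.74 (1.62 to 1.86) and 1.58 (1.37 to 1.78), and the adaptor Lat at 1.69 (1.54 to 1.83). Lcp2 at 0.59 (0.55 to 0.63) and Ptpn22 at 0.63 (0.57 to 0.69) differed by less. Myeloid cells express both genes as well, and their part in these levels was not tested.

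The exception was Trbc1, the constant part of the other beta chain. It was read at 18.8 CPM (18.1 to 19.5) in the KPC-shZEB1-labelled library and 58.4 CPM (57.2 to 59.5) in the KPC-shV-labelled library, a log2 difference of -1.63 (-1.70 to -1.57) over all spots and -1.01 (-1.07 to -0.95) outside acinar-rich spots. In the KPC-shV-labelled library it did not track the CD3 chains. Spots with 0 UMIs of the CD3 chains had 55.3 CPM (53.9 to 56.7) and spots with 3 or more had 63.5 CPM (59.5 to 67.7), whereas Trbc2 went from 5.34 CPM (4.91 to 5.79) to 43.4 CPM (40.1 to 46.9) and Trac from 4.66 CPM (4.26 to 5.08) to 33.1 CPM (30.3 to 36.2). In the KPC-shZEB1-labelled library, Trbc1 went from 9.91 CPM (9.11 to 10.8) to 29.0 CPM (27.6 to 30.5), and 1 spot without a CD3 chain UMI held 31 of its UMIs. The highest count of Trbc1 in a spot of the KPC-shV-labelled library, 73, was also in a spot without a CD3 chain UMI. In the remaining tumor tissue of that library the Pearson correlation of Trbc1 was 0.09 with the CD3 chains and 0.25 with the epithelium list. For Trbc2 it was 0.45 and -0.26. In the KPC-shZEB1-labelled library the values were 0.12 and -0.14 for Trbc1, and 0.66 and -0.23 for Trbc2. The source of the Trbc1 UMIs was not tested.

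Of 5 gamma delta T cell genes read, 1 had a log2 ratio of at least 1 outside acinar-rich spots and 0 had one of -1 or less, beside 3.79% and 1.73% of all genes. Trdc, the constant part of the delta chain, had a log2 ratio of 1.44 (1.19 to 1.69) in these spots, and Tcrg-C1, a constant part of a gamma chain, one of -0.62 (-0.85 to -0.40). Of 5 genes of the CD4 and CD8 lineages read, 2 had a log2 ratio of at least 1 in the same spots, beside 3.79% of all genes. There, 0 had one of -1 or less, beside 1.73%, and the median of the 5 was 0.72. Cd40lg, the ligand through which helper T cells act on B cells, was at 1.71 (1.40 to 2.02), and Eomes, a transcription factor of cytotoxic cells, at -0.59 (-0.84 to -0.35). These genes are not read as a contrast of helper and cytotoxic cells.

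Among 11116 genes with at least 500 UMIs in each library, the 10 most like the summed CD3 chains over spots (by the lower of the Pearson correlations of log2(CPM + 10) in the 2 libraries) were Serpina3g, Ccl5, Cd74, H2-Eb1, Il2rg, Trbc2, H2-Ab1, Aif1, Cybb and Ctss. Serpina3g, a serine protease inhibitor, correlated at 0.79 over 2220 spots of the KPC-shZEB1-labelled library and 0.51 over 3552 spots of the KPC-shV-labelled library. The chemokine Ccl5 correlated at 0.76 and 0.47, and Trbc2 at 0.77 and 0.43. The median gene correlated at 0.33 and 0.03. Spots of a library share its section, depth and acinar content, and within the remaining tumor tissue alone Serpina3g correlated at 0.64 and 0.53. The list holds MHC class II genes (Cd74, H2-Eb1, H2-Ab1) and myeloid genes (Aif1, Cybb, Ctss). Between the libraries Ccl5 had a log2 ratio of 1.57 (1.54 to 1.60), Serpina3g 0.54 (0.51 to 0.57) and Aif1 0.15 (0.12 to 0.18), compared with 1.90 (1.83 to 1.97) for the CD3 chains.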

How the data were processed

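Visium CytAssist spatial transcriptomics was analyzed from 1 library per group. The authors hybridized probes and ran Space Ranger 2.0.1 on the mm10 build. What they deposited are UMI counts of each feature in the spots over tissue, not normalized. The probe design limits what can be read, and UMI ratios between genes depend on it. Levels (CPM) are UMI sums over spots per 1000000 UMIs of the same spots. Intervals (95%) were exact Poisson for levels, exact conditional binomial for ratios of levels and of UMIs, delta-method for ratios of ratios and exact binomial for shares. With 1 library per group no test was run, and a gene was counted as different at a log2 ratio of at least 1 or at most -1 with at least 50 UMIs in the higher group. All genes were computed and the 8 members, the listed marker genes and the 10 genes most like the CD3 chains are named. The members, the lists and the rules were chosen with earlier results of these data known. Shares were taken after thinning each spot to 20000 UMIs. Of the listed genes, Ca9, Krt18, Ccl19, Ccl21a, Tcrg-C2, Trdv4, Zbtb7b and 4 of the 24 acinar genes were not matched in the feature list used. Alternatives were other sets of spots, scalings, class limits and depths. Gene positions came from GENCODE on GRCm38. No doublet caller was run and no cell type makeup was estimated, because a spot is a region. Computations used Python 3.11.15 with scipy 1.17.1 and numpy 2.4.6, and plots matplotlib 3.10.9. On simulated data for KPC-shZEB1 over KPC-shV with 19465 genes, 200 of 200 changed genes had the right direction and 95.1% of 19344 intervals held the true value. Images, spot positions and the single-cell data of the study were not used here.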

Additional observations from a re-analysis of the deposited data

Results flagged for a closer look

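The level of Cd4 in acinar-rich spots over remaining tumor tissue went in opposite directions in the 2 libraries. The log2 ratio was -2.31 (-2.63 to -2.004) in the KPC-shZEB1-labelled library, from 97 Cd4 UMIs in acinar-rich spots, and 0.60 (0.13 to 1.04) in the KPC-shV-labelled library, from 45. The median log2 ratio of all genes tested in this comparison was -2.12 and -0.90, in the same order. Cd4 was thus near the median gene in the KPC-shZEB1-labelled library and above it in the KPC-shV-labelled library. The difference between the libraries was not tested, since each group has 1 library.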

How the results depend on the processing

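No result changed sign under the alternatives run, except Foxp3 per Cd4, which lay between -0.13 and 0.05 over other sets of spots with intervals that held 0. The log2 ratio of the CD3 chains between libraries (1.90) was 2.54 without acinar-rich spots, 1.81 without B cell rich spots, 2.40 in remaining tumor tissue, 2.38 with median-of-ratios scaling, 1.79 as the mean CPM of spots, 2.02 without the 5% of spots with the highest level and 2.27 with acinar genes out of the total. Alternatives chosen after seeing the data gave 2.24 with 3 times the median level of unexpected genes taken off and 2.61 in remaining tumor tissue spots with no B cell UMI. The log2 ratio of the CD4 to CD8 balance (-1.13) was -1.39 in remaining tumor tissue. Foxp3 set against the CD3 chains in place of Cd4 gave -1.37, which background limits because Foxp3 lay near the level of the unexpected genes.

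For acinar-rich over remaining tumor tissue, limits of 5% and 40% gave -3.19 and -5.12 in the KPC-shZEB1-labelled library (main -4.31) and -1.04 and -3.19 in the KPC-shV-labelled library (main -1.92). With only the spots above the median of the epithelium list as the remaining tumor tissue, acinar-rich spots gave -3.95 and -0.98, B cell rich spots 1.56 and 3.14, and hypoxic spots of the KPC-shV-labelled library -1.03. The mean CPM of spots gave -3.84 for acinar-rich spots of the KPC-shZEB1-labelled library, and 1.86 for B cell rich and -1.44 for hypoxic spots of the KPC-shV-labelled library. A B cell limit at the 98th percentile gave 3.27 in the KPC-shV-labelled library, with 24 spots. The share of spots with CD3 chains (44.3% and 19.0%) was 19.9% and 6.50% at 5000 UMIs, 60.7% and 32.3% without thinning, and 26.7% and 6.73% with at least 2 UMIs. The alternatives that take off the level of unexpected genes gave no value for Cd247, Cd8b1, Foxp3, Foxp3 per Cd4 or the CD4 to CD8 balance, because a level in the KPC-shV-labelled library is under it, and gave 3.03 for Cd8a (main 1.66) and 0.80 for Cd4 (main 0.59). No paired analysis was possible because each group has 1 library, and for the same reason no library could be left out. Depth limits Foxp3, Cd247 and Cd8b1 most, at 159 UMIs or fewer each in the KPC-shV-labelled library.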
